A study of Rattus norvegicus with 8 samples.

Results

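The protein part of the cytosolic ribosome is represented in the deposited tables by 42 of 26405 rows, the genes whose rat symbol has the form of a cytosolic ribosomal protein (Rpl or Rps and a number, Rplp0, Rplp1, Rplp2 or Rpsa). They comprise 27 large-subunit (Rpl) and 15 small-subunit (Rps) symbols. Of these, 31 are symbols of standard ribosomal proteins, 21 of the large and 10 of the small subunit, and 11 are symbols of like forms or numbered copies (Rpl3l, Rpl7l1, Rpl10l, Rpl31l3, Rpl34l1, Rpl39l, Rps4y2, Rps10l1, Rps19l1, Rps27l2 and Rps27l3). All 42 were accounted for: 41 had reads in axons, 39 had reads in cell bodies and 38 had reads in both. The symbols cover the ribosome only in part, because 203 further rows were named as a ribosomal protein gene or a copy of one by the table or by RefSeq but carried another symbol or none, and 75 of those had a standard ribosomal protein name in RefSeq.

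The neurons came from the hippocampus of rat embryos and were kept in culture for 10 to 14 days in microfluidic chambers, whose narrow channels admit axons and hold back cell bodies, so that RNA could be sequenced from each compartment. The axonal compartment alone received soluble oligomeric Abeta(1-42), the amyloid peptide that aggregates in Alzheimer disease, or vehicle, for 24 h. The 8 samples form 4 groups of 2: axons with Abeta, axons with vehicle, cell bodies of chambers whose axons received Abeta, and cell bodies of chambers whose axons received vehicle. No genetic change is stated for any group, and a somatic sample is one whose axons, not its cell bodies, were exposed. The labels do not say whether the 2 samples of a group are separate cultures. The p-values then measure only the spread between these samples, and that spread may be technical.

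The cytosolic ribosome has a small subunit that reads the messenger RNA and a large subunit that joins amino acids, each built from ribosomal RNA and a set of proteins that are mostly made in equal amounts. Neurons transport many of the messages for these proteins into axons, where ribosomes make protein locally, and ribosomal protein messages are among the most regularly found in axonal RNA. In mammals these messages usually begin at a C followed by an unbroken stretch of C and U, the terminal oligopyrimidine tract, through which the growth-control kinase mTOR and the RNA-binding protein Larp1 govern their translation.

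Start sites of 7 standard members and 2 like forms are shown because this tract is the sequence feature by which these messages are controlled together. Each line gives the 15 bases before and the 15 bases from the annotated transcription start, 5′ to 3′ on the gene's strand, from RefSeq (GRCr8). Capitals mark the longest unbroken run of C and T in that window.

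Rps24, chr16:96502-96531, plus strand: tgagcggTCCTCTTTTCCTCCTTTacagct

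Rps23, chr2:23814502-23814531, plus strand: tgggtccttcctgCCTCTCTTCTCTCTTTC

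Rps15, chr7:10068101-10068130, minus strand: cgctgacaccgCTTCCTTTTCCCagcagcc

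Rpl34, chr2:221962269-221962298, minus strand: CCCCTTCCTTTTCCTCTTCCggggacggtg

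Rpl4, chr8:73566462-73566491, plus strand: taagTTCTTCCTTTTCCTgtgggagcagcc

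Rplp1, chr8:71290858-71290887, minus strand: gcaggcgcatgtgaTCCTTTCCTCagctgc

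Rpl3, chr7:113507976-113508005, minus strand: ccagcgcctgctcgaTCTCTatcggcggcg

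Rpl7l1, chr9:21695703-21695732, plus strand: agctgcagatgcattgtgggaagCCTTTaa

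Rpl34l1, chrX:66181120-66181149, plus strand: CTCTTCTggagacagtgcttagaggcactc

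A run of at least 8 bases, each C or T, searched on the gene's strand only, was present in 16 of the 25 standard members with a RefSeq window, or 64%. Among all 33469 RefSeq windows of this length the share was 11.4%. By subunit it was 8 of 16 for the large and 8 of 9 for the small. Among like forms, 1 of 4 had it. A match is a description of letters, and the annotated start may lie a few bases from the used one. In Rpl3 the run of 5 bases begins at the annotated start itself, and in Rpl34l1 a run of 7 lies wholly before it.

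The deposited tables name no numerator for their fold changes. Signs are therefore given as deposited, and the treatment with the higher value for a positive fold change is called the positive side, without saying which treatment it is. Whole reads per library were recovered from the digits of the deposited means, so each side has 2 libraries, numbered by depth. Recovered totals were 231854 to 425420 reads for the 4 axonal libraries. For the somatic libraries they were 2699568 and 3661660 in the deeper library of each side and 263117 and 290371 in the shallower. Axonal values rest on few reads: the 31 standard members had 3 to 549 axonal reads each over the 4 libraries, with a median of 144, against a median of 2297 in cell bodies. Values below are normalized counts, reads divided by a size factor, given for the positive side against the negative side and in library order, and their levels are compared between libraries of 1 gene and not between genes.

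In axons, ribosomal protein messages lay mostly on the positive side, but none passed the authors' test. In the authors' deposited table, 28 of the 31 standard members had an axonal log2 fold change above 0, with a median of 0.54, which is 1.46-fold, and a range of -0.62 to 1.17. The exceptions were Rpl37a (-0.62), Rps21 (-0.37) and Rpl36a (-0.19) in the authors' deposited table. Of the 9 members with a DESeq2 adjusted p in the authors' deposited table, 0 were called at 0.05, where 23.0% of the 1321 genes with an adjusted p were called (8.78% with a positive and 14.2% with a negative sign). At an unadjusted p under 0.05 there was 1 member, Rpl3, where the authors' deposited table held 4.45% of all genes. The lowest mean with an adjusted p was 44.8, and the other 33 members, all 11 like forms among them, had none and could not have been called.

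Genes with higher somatic means had higher axonal fold changes, and the members followed that course. In the authors' deposited table the median over all 23879 genes with axonal reads was -0.13, while for the 2683 genes whose somatic mean was 100 or more it was 0.44. Above 0 lay 43.7% of the former and 76.6% of the latter in the authors' deposited table. Among genes with a somatic mean of 100 to 300 the all-gene median was 0.42 and that of the 13 standard members was 0.56. For a somatic mean of 300 to 1000 these medians were 0.52 and 0.82, with 12 members, and for 50 to 100 they were 0.25 and 0.37, with 5. The members' median thus lay 0.12, 0.14 and 0.30 above that of genes of like somatic level, from the lowest range to the highest, and no test was run on these differences.

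**Figure D1:**
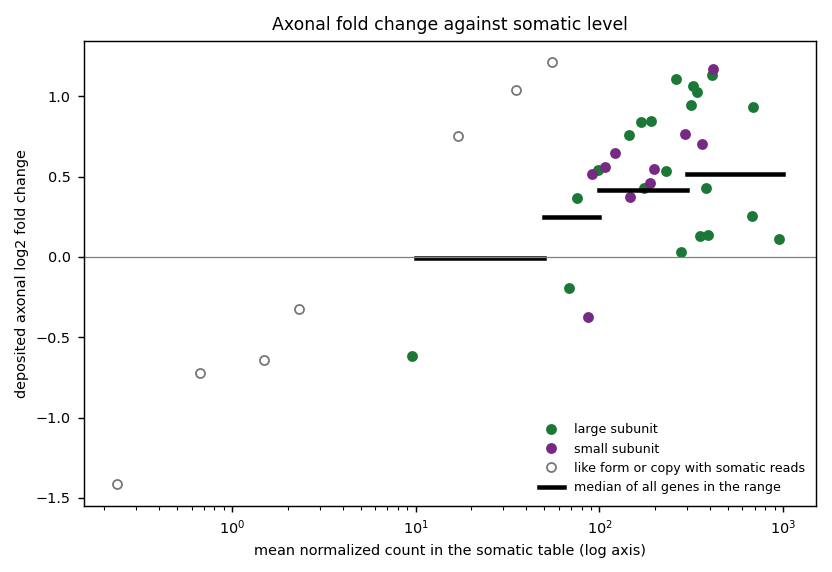
Deposited axonal log2 fold change (vertical axis, sign as deposited) against the mean normalized count in the somatic table (horizontal log axis), with a point for each member with somatic reads and black bars for the median of all genes in 4 ranges of somatic mean. The members lie around and above bars that themselves climb from -0.01 to 0.52, and 3 standard members lie below 0.

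Axonal library values show how far the sides separated. Of the 30 members with an axonal mean of at least 10, 17 had both positive-side libraries above both negative-side libraries and 0 had the reverse, beside 30.6% and 18.9% of all genes with that mean. Genes with a somatic mean of 100 to 1000 did so at 47.8% and 6.10%. The members' share of 56.7% lies nearer to that, but includes members below this level. For a somatic mean of 100 to 300, 9 of 13 standard members had the positive side higher, beside 45.1% of all genes. For 300 to 1000 these were 6 of 12 and 60.4%. Of the standard members with an axonal mean of at least 10, the sides were apart for 9 of 19 in the large and 7 of 10 in the small subunit.

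**Figure D2:**
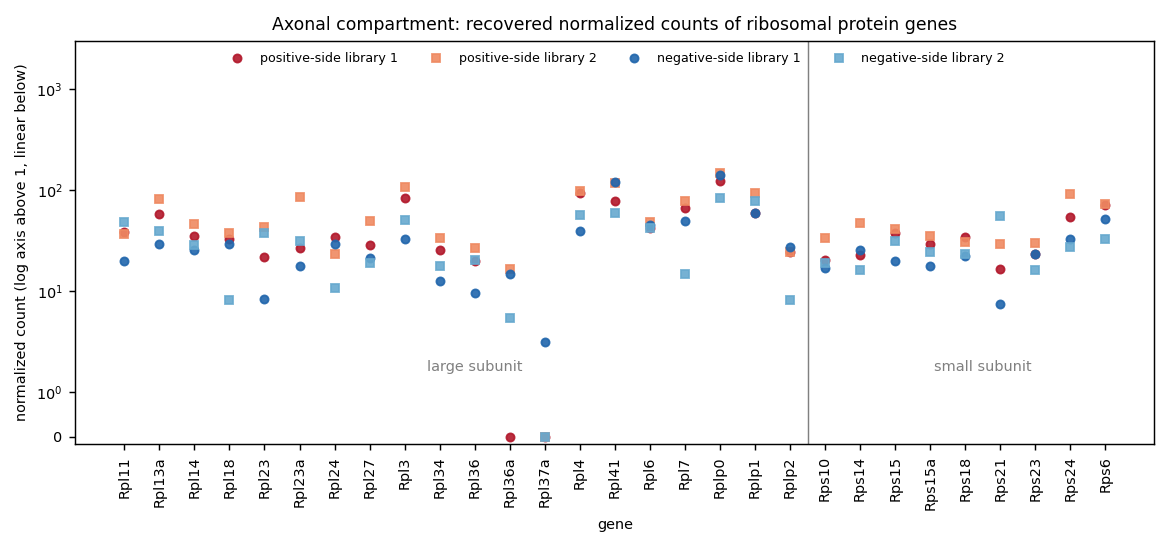
Recovered normalized counts (vertical axis, logarithmic above 1) of standard members in the 4 axonal libraries, red and orange for the positive side, dark and light blue for the negative side. Rpl3, Rpl4, Rpl13a and Rps24 have both red points above both blue points, whereas Rplp0, Rplp1, Rpl41 and Rpl6 have them mixed.

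Of the proteins at the catalytic core of the large subunit, Rpl3 and Rpl4 had sides that were apart in axons. Rpl3, which reaches to the peptidyl transferase centre, had normalized counts of 83.9 and 107 in positive-side axons and 32.6 and 49.97 on the other. The sides did not overlap, and the authors' deposited table gave a log2 fold change of 1.13 with a standard error of 0.55 and a DESeq2 adjusted p of 0.135. Rpl4, which sends a loop into the exit tunnel, had 93.0 and 97.8 against 38.9 and 56.7. In the authors' deposited table its log2 fold change was 0.93 with a standard error of 0.53 and its DESeq2 adjusted p was 0.228. Rpl8 and Rpl10, the other core proteins, lay outside the symbol rule. The row RefSeq names Rpl10 had 37.8 and 45.4 against 25.2 and 13.5, again without overlap. The main row named Rpl8 had 30.2 and 61.8 against 22.1 and 36.5, with overlap.

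Small-subunit members lay mostly on the same side in axons. Rps24, a protein mutated in some patients with Diamond-Blackfan anaemia, had 54.4 and 90.8 against 32.6 and 27.0. Its log2 fold change in the authors' deposited table was the highest of the standard members, 1.17 with a standard error of 0.60 and a DESeq2 adjusted p of 0.162. Rps6, the substrate of the S6 kinases and a common readout of mTOR activity, had 71.0 and 72.0 against 51.5 and 32.4. The authors' deposited table gave it a log2 fold change of 0.70 with a standard error of 0.57 and a DESeq2 adjusted p of 0.423. Of the proteins near the decoding site, Rps15 had 37.8 and 40.7 against 19.96 and 31.1, and Rps23 had 23.4 and 29.7 against 23.1 and 16.2. In both genes the sides were apart, though in Rps23 by less than 1 normalized count.

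Rps21 and the row RefSeq names Rps3 did not follow. Rps21 had 16.6 and 29.0 against 7.35 and 55.4, so that its negative deposited sign rests on 1 library. The Rps3 row, for the protein at the messenger RNA entry, had 40.8 and 29.7 against 42.0 and 44.6, the negative side above the positive by a small margin. The row named Rps2, also at the entry, had 107 and 141 against 82.98 and 109, and that named Rpsa, the laminin-receptor ribosomal protein, had 128 and 112 against 98.7 and 75.6. Rps27a and Rps4x were matched to no row by symbol or by RefSeq name, but rows that RefSeq names as their pseudogenes had reads. In axons the main row named Rps27a-ps1 had 43.1 and 45.4 against 22.1 and 51.3. That named Rps4x-ps9 had 12.1 and 18.8 against 10.5 and 17.6, and the sides overlapped in both.

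The stalk, which recruits the elongation factors to the large subunit, showed little side difference in axons. Rplp0, the stalk base and the member with the most axonal reads (549), had normalized counts of 124 and 148 against 141 and 83.7. Rplp1 had 59.0 and 92.3 against 58.8 and 78.3, and Rplp2 had 24.2 and 24.3 against 27.3 and 8.10. The sides overlapped in all 3, and the log2 fold changes in the authors' deposited table were 0.26, 0.13 and 0.37, with standard errors of 0.48, 0.54 and 0.78. For Rplp0 and Rplp1 the DESeq2 adjusted p in the authors' deposited table was 0.741 and 0.882.

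Other large-subunit proteins covered the range between. Rpl7 had 65.8 and 77.5 against 49.4 and 14.9, and its log2 fold change in the authors' deposited table was 1.03 with a standard error of 0.64 and a DESeq2 adjusted p of 0.272. Rpl13a had 58.2 and 81.4 against 29.4 and 39.2, with 0.94, 0.59 and 0.273 for the same quantities in the authors' deposited DESeq2 table (log2 fold change, standard error and adjusted p). Around the exit tunnel, Rpl23a had 26.5 and 86.1 against 17.9 and 31.1, and here a single library carried the difference. Rows outside the rule for tunnel-rim proteins included Rpl19 (52.2 and 63.4 against 22.1 and 32.4) and Rpl31 (55.9 and 57.1 against 34.7 and 23.0), both apart. Those for Rpl17 (31.7 and 73.6 against 32.6 and 43.2), Rpl35 (73.3 and 63.4 against 78.8 and 18.9) and Rpl26 (30.2 and 45.4 against 45.2 and 28.4) overlapped. Of the proteins that carry the 5S RNA into the large subunit and hold the p53 inhibitor Mdm2 when ribosome assembly fails, Rpl11 had 38.5 and 36.8 against 19.96 and 48.6. The row named Rpl5 had 37.8 and 75.9 against 52.5 and 39.2, and both overlapped. Rpl41, one of the shortest proteins known, had 77.1 and 117 against 119 and 59.4, and Rpl6 had 41.6 and 47.7 against 45.2 and 41.9, with the deposited log2 fold change nearest to 0 among standard members (0.03 in the authors' deposited table).

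Further standard members had lower axonal counts. In the large subunit, Rpl14 (34.8 and 46.2 against 25.2 and 28.4), Rpl18 (32.5 and 37.6 against 29.4 and 8.10), Rpl27 (28.7 and 49.3 against 21.0 and 18.9) and Rpl34 (25.7 and 33.7 against 12.6 and 17.6) had sides apart. In the small subunit the same held for Rps10 (20.4 and 33.7 against 16.8 and 18.9), Rps15a (29.5 and 35.2 against 17.9 and 24.3) and Rps18 (34.0 and 30.5 against 22.1 and 22.96). Among the 17 members with sides apart were also Rpl3, Rpl4, Rpl7, Rpl13a, Rps6, Rps15, Rps23, Rps24 and the like form Rps27l3. The sides overlapped in Rpl23 (21.9 and 43.0 against 8.40 and 37.8), Rpl24 (34.0 and 23.5 against 29.4 and 10.8) and Rpl36 (19.7 and 26.6 against 9.45 and 20.3). They also overlapped in Rps14 (22.7 and 46.95 against 25.2 and 16.2), where the second positive-side library stood above the other 3. Rpl36a had 0 and 16.4 against 14.7 and 5.40 on 39 reads in all. Rpl37a had 3 axonal reads, each from negative-side library 1, on which its sign rests.

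The medians of large and small subunits lay close together. The median axonal log2 fold change in the authors' deposited table was 0.53 for the 21 large and 0.55 for the 10 small standard members, with 19 and 9 above 0. Over all members with reads, like forms included, the large-subunit median minus the small-subunit median was -0.12. It was 0.01 without positive-side library 2 and 0.11 without negative-side library 1 on recovered ratios, so its sign rests on single libraries. The 31 standard members in cell bodies gave medians of -0.01 for the large and 0.02 for the small subunit in the authors' deposited table.

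**Figure D3:**
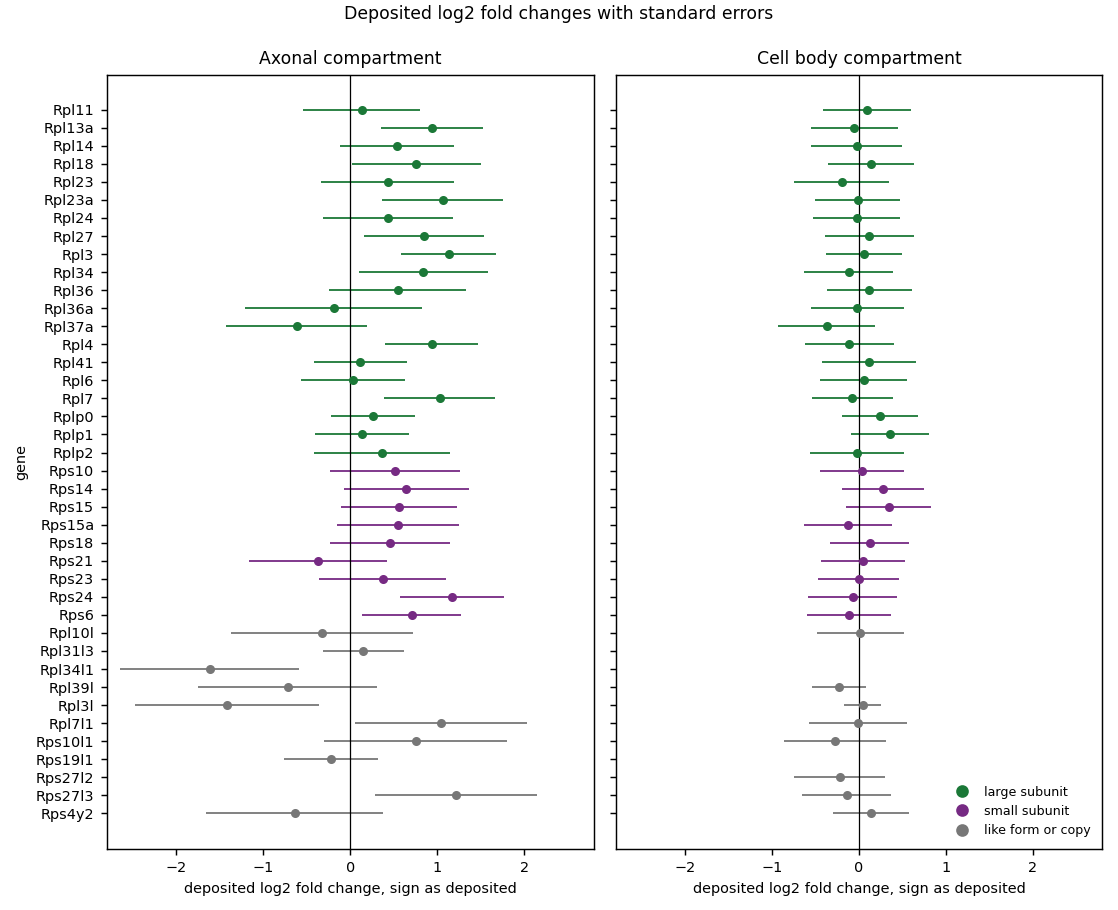
Deposited log2 fold changes (horizontal axes, sign as deposited) with their standard errors for the members, axons at left and cell bodies at right, coloured by subunit with like forms in grey. In axons all standard members shown but Rpl36a, Rpl37a and Rps21 lie right of 0, in cell bodies they lie on both sides of 0, and members without reads have no point.

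In cell bodies the side difference of the members centred on 0. In the authors' deposited table, 16 of the 31 standard members were above 0 and 15 below, with a median of 0.003 and a range of -0.37 to 0.36, beside -0.02 for all genes with reads and -0.06 for those with a mean of at least 100. DESeq2 adjusted p-values of the authors' deposited table called 0 of the 39 members with reads, as they called 0% of all 18995 genes, and the smallest member value was 1.00. At an unadjusted p under 0.05 the authors' deposited table held 0 members and 2 of all genes (0.0105%). The sides were apart for 4 of 33 members (12.1%) with a somatic mean of at least 10 on the positive side (Rplp0, Rplp1, Rps14 and Rps18) and for 0 on the negative side, against 7.42% and 8.26% of all genes with that mean. For a somatic mean of 100 to 300 these were 2 and 0 of 13 standard members, beside 4.63% and 6.47% of all genes. For 300 to 1000 they were 2 and 0 of 12, beside 4.46% and 13.8%, and no test was run on these counts.

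Stalk proteins Rplp1 and Rplp0 were among the 4 with sides apart in cell bodies. Rplp1 had somatic normalized counts of 478 and 421 against 382 and 282, and a log2 fold change of 0.36 with a standard error of 0.45 in the authors' deposited table. Rplp0 had 705 and 788 against 616 and 601, and Rplp2, which pairs with Rplp1 in the stalk, had 38.7 and 111 against 45.2 and 106. In Rplp2 the values split by library depth and not by side. Rps15 had 143 and 104 against 110 and 71.9 and overlapped, and Rps14, a protein of the subunit platform, had 128 and 145 against 113 and 100.1. Rpl37a had the lowest value, -0.37 with a standard error of 0.56 in the authors' deposited table, on 36 and 0 reads against 98 and 0. The like form Rpl39l, whose p was the smallest after that of Rplp1, had 0 and 0 somatic reads against 10 and 0.

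Library depth divided the somatic values of the members more than side did. Both sides had a far deeper library than its partner, with size factors of 2.97 against 0.297 and 3.74 against 0.320. For 23 of the 30 standard members with a mean of at least 10, the deep library had the higher normalized count on both sides, and for 4 the shallow one did. In the 25 members with a somatic mean of 100 to 1000 these counts were 21 and 1, beside 1339 and 922 of the 2565 recovered genes in that range. The median difference, deep minus shallow on the log2(value + 1) scale, was 0.93 (range -1.36 to 1.83). Within that range of somatic means it was 1.04 for the 25 members and 0.21 for all genes. Of the 30, the 20 large-subunit members had a median of 1.04 and the 10 small-subunit members 0.34. Rpl41 illustrates it with 1513 and 1432 in the deep libraries and 492 and 350 in the shallow ones. Rpl23 had 520 and 674 against 165 and 166, whereas Rpl3 had 383 and 402 against 461 and 400.4. What else set the deep and shallow libraries apart was not tested, and the labels give no batch.

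Within depth the side differences were small. The positive minus negative difference of the 30 members had a median of -0.04 between the deep libraries (SD over members 0.20, 13 above 0) and 0.20 between the shallow ones (SD 0.22, 23 above 0). The 25 members with a somatic mean of 100 to 1000 gave -0.01 and 0.23, beside -0.09 and -0.03 for the 2565 genes in that range, of which 896 and 1192 were above 0. At both depths 10 of the 30 members were above 0 and 4 below, Rplp0, Rplp1, Rps14 and Rps15 among the 10. Of the 25 members with a somatic mean of 100 to 1000, 9 were above 0 at both depths and 4 below. Of the 2565 genes in that range these counts were 509 and 986. Leaving out any single somatic library unbalanced the depths and moved the median over all members to between -0.44 and 0.56.

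**Figure D4:**
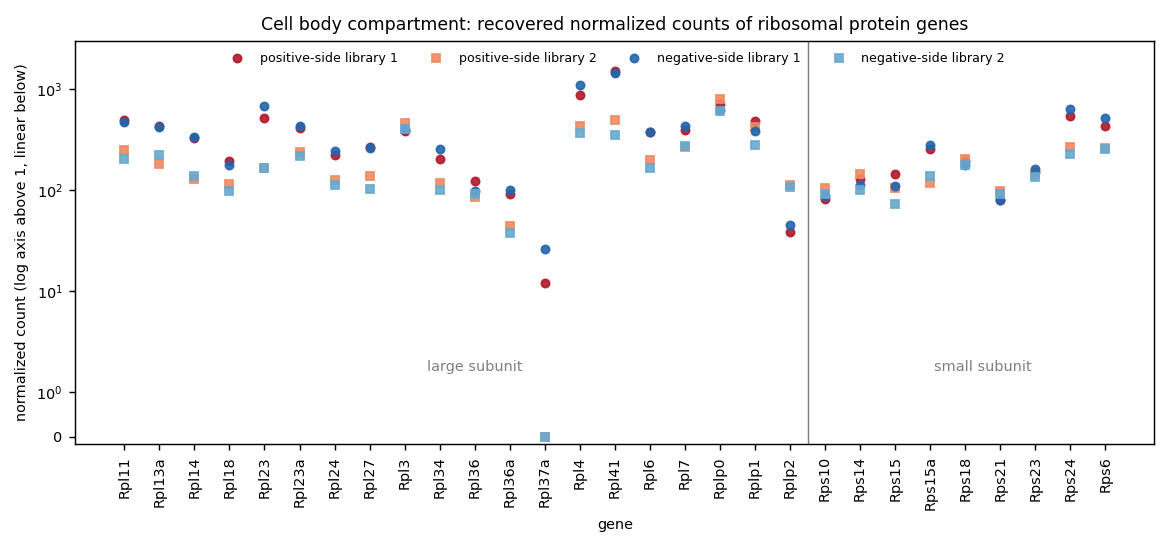
Recovered normalized counts (vertical axis, logarithmic above 1) of standard members in the 4 somatic libraries; circles are the deep and squares the shallow library of each side. Most circles lie above the squares, with Rplp2 reversed, and red and blue symbols of 1 shape nearly coincide.

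**Figure D5:**
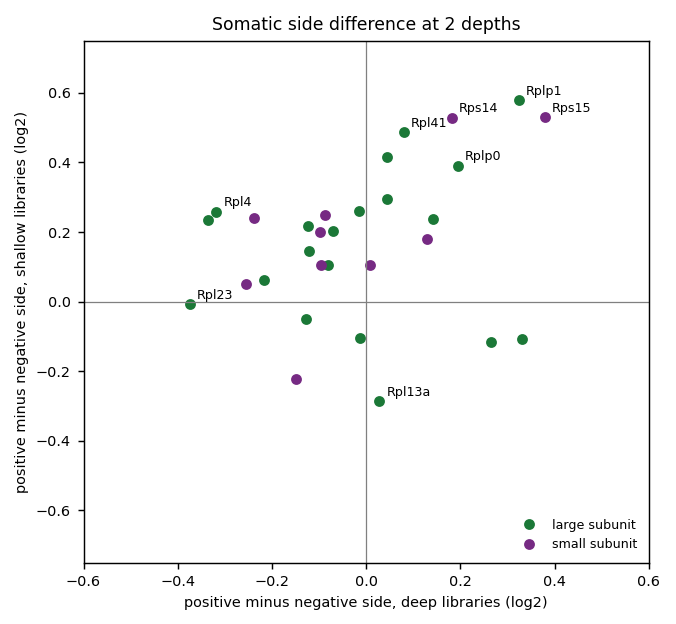
Somatic positive minus negative side difference on the log2(value + 1) scale between the deep libraries (horizontal axis) and between the shallow libraries (vertical axis) for the 30 standard members with a mean of at least 10. Rplp1, Rps15, Rplp0 and Rps14 lie at the upper right, and the points scatter around -0.04 and 0.20.

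Axonal and somatic fold changes were compared directly, gene by gene. The comparison takes the numerator, named for neither compartment, to be the same in both, and treats the compartments as independent. Of the 38 members in both tables, 0 passed the z test of the axonal minus somatic log2 fold change (Benjamini-Hochberg adjusted p of 1.00 for all of them), where 0.0326% of 18406 genes passed. At an unadjusted p under 0.05 the share of all genes was 2.60% and no member was among them. The widest standard-member difference was that of Rps24, 1.24 with a standard error of 0.79. Thus the axonal shift of single members is not shown to differ from the somatic value, with standard errors of that size.

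Ribosomal protein reads took a smaller share of every axonal library than of any somatic library, though the adjusted test could not pass on 1 such share alone. Over genes recovered in both tables, the 31 standard members took 0.436% and 0.577% of the reads on the positive side in axons, against 0.342% and 0.325%. In cell bodies they took 1.24% and 0.758% against 1.19% and 0.647%, deeper library named first. The means were 0.420% ± 0.116 (SD, n = 4) and 0.957% ± 0.298 (SD, n = 4). The exact two-sided permutation p was 0.0286, the smallest that 4 against 4 can give, or 0.0857 after Benjamini-Hochberg adjustment over 3 shares. For all 3 shares the test pooled both sides within a compartment and treated the libraries as independent of each other. Wilson 95% intervals reached at most 0.0336 percentage points to either side and cover counting error only. The somatic share differed with depth, and the axonal libraries were close in depth to the shallow somatic ones. Over these genes the axonal libraries held 215245 to 389945 reads and the shallow somatic ones 256083 and 278314. Beside the shallow somatic shares alone, 0.758% and 0.647%, the axonal shares of 0.325% to 0.577% lay closer. The part of depth in the compartment difference was not tested. A difference in how many reads other RNA takes, in RNA content and in the cells present cannot be told apart here.

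The balance inside the set was closer. Large-subunit messages made up 73.1% ± 1.31 (SD, n = 4) of standard-member reads in axons and 76.1% ± 1.51 (SD, n = 4) in cell bodies (exact permutation p = 0.0571, adjusted 0.0857). Stalk messages made up 17.9% ± 3.16 in axons and 14.6% ± 5.11 in cell bodies (SD, n = 4 each, exact permutation p = 0.314). Within axons that share was 16.1% and 15.2% on the positive side against 22.3% and 18.0%. Within cell bodies it was 11.3% and 9.35% in the deep libraries and 20.2% and 17.5% in the shallow ones. Gene by gene, 30 of 31 members had overlapping shares between compartments. The exception was Rps15, at 2.63% ± 0.60 of standard-member reads in axons and 1.30% ± 0.25 in cell bodies (SD, n = 4 each), which was chosen after its values were seen. As a share of all summed table means, the 42 members took 0.0609% in axons and 0.213% in cell bodies, and without the 20 most abundant identifiers 0.130% and 0.724%.

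Other rows of the same family limit what a row means for many members. By table symbol or RefSeq name, such a row was present for 33 of the 42 members and 23 of the 31 standard ones. These are matches of names, and how near to identical the rows are was not measured. They include the paralog Rpl3l for Rpl3 and, for Rpl24, a row without axonal reads. In 19 standard members the member itself held at least 90% of the family's axonal mean. Among these, Rpl4, Rpl11, Rpl13a, Rpl18, Rpl23, Rpl41, Rps14 and Rps15 had no other row, which fixes their share. How the authors' counting divided reads between copies is not given in the sources used here.

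Rps6 shows the division most plainly. A second row that RefSeq also names Rps6 had 90 and 79 axonal reads against 45 and 25, beside 94 and 92 against 49 and 24 for Rps6 itself. In cell bodies the second row had 1221 and 79 against 1810 and 85, and Rps6 had 1269 and 78 against 1910 and 81. The member held 51.8% of the family's axonal mean, and the rows nearly repeat each other, so they are not separate evidence. Rplp1 held 53.4% of its family, and its second row had 59 and 82 reads against 44 and 44, an axonal pattern that again resembles the member's 78 and 118 against 56 and 58. Rplp2 held 57.2% and Rpl36a 53.5% of their families, the latter beside Rpl36al, with which it shares an Entrez entry. Among outside rows with a mean of at least 10 in the table concerned, some carried the same values in full: a pair named Rpl8 in both tables, a pair named Rpl7a in axons and a pair named Rpl35a in cell bodies.

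Tissue-restricted and copy forms had few axonal reads. The 11 like forms had at most 49 axonal reads each, and 4 of the 10 with axonal reads lay above 0 in the authors' deposited table, with a median of -0.27. In the deeper cell body data Rps27l3 had 464 reads, Rps10l1 185 and Rpl7l1 157, and the other like forms had at most 33 each. Rpl3l, the paralog that replaces Rpl3 in striated muscle, had 2 and 2 reads against 18 and 0 in axons and 3 reads in all in cell bodies. Rpl34l1 had 0 and 0 reads against 10 and 0 in axons and no somatic read. Both negative deposited signs therefore rest on negative-side library 1. Rpl10l and Rpl39l, known from testis, had 10 and 7 axonal reads in all. Their axonal means were 2.66 and 1.92, beside 30.5 for the row named Rpl10 and 23.9 for the main row named Rpl39.

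Among the others, Rpl7l1, a paralog of Rpl7, had normalized counts of 10.6 and 10.2 against 3.15 and 4.05 in axons, and Rps27l3 had 18.1 and 13.3 against 2.10 and 8.10. RefSeq lists the Entrez entry of Rps27l3 as a pseudogene of Rps27a, and that of Rps10l1 is the entry of Rps10. Rps4y2 had 7 axonal reads, Rpl31l3 and Rps19l1 had 1 each, and Rps27l2 had 0. Of the paralog pair outside the rule, the row named Rpl22 had 10.6 and 22.7 against 2.10 and 14.9, and Rpl22l1 had 5.29 and 7.83 against 2.10 and 0. The row named Rps27 had 13.6 and 27.4 against 7.35 and 16.2, and Rps27l had 5.29 and 10.2 against 3.15 and 6.75.

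Ribosomal protein rows outside the symbol rule had a lower axonal median than the standard members. Of the 74 with a standard RefSeq name and axonal reads, 53 lay above 0 in the authors' deposited table, with a median of 0.31, beside 0.54 for the standard members. With an axonal mean of at least 10 the medians there were 0.44 for 49 such rows and 0.54 for 29 standard members. The rows were not matched for somatic level, and each row of a pair with the same values was counted. DESeq2 called 0 of the 16 with an adjusted p in the authors' deposited table. A single row named as a copy passed on the negative side: LOC100364265, a Rpl19 like form in RefSeq, at -1.59 with a standard error of 0.51 and a DESeq2 adjusted p of 0.0138 in the authors' deposited table. It had normalized counts of 278 and 84.5 against 729 and 446 in axons, an axonal mean of 384 beside a somatic mean of 24.6, unlike the row named Rpl19. This copy was singled out after its values were seen.

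Other genes of the pathway are described by class. All 16 of 16 listed messages with a terminal oligopyrimidine start or their regulators lay above 0 in axons in the authors' deposited table, with a median of 0.68, and DESeq2 called 0 of the 7 with an adjusted p. Of genes whose somatic mean was 100 or more, which include most of this list, 76.6% lay above 0 in the authors' deposited table, with a median of 0.44. Eef2, the translocation factor of elongation, had 333 and 343 against 137 and 204, with a DESeq2 adjusted p of 0.0885 in the authors' deposited table. Eef1a1, which delivers aminoacyl-tRNA, had 441 and 534 against 217 and 363, and Larp1, which binds these messages, had 28.0 and 65.7 against 21.0 and 17.6. In cell bodies 8 of the 16 lay above 0, with a median of -0.01. Within the standard members, the median axonal value in the authors' deposited table was 0.52 for the 16 with a run of at least 8 bases and 0.43 for the 9 without.

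The median of factors that build ribosomes in the nucleolus lay near that of all genes in axons. It lay below those of genes with somatic means of 10 to 300. Of 62 listed genes 60 were matched, and of their 62 rows 29 lay above 0 and 33 below in axons in the authors' deposited table, with a median of -0.15, beside 43.7% above 0 and a median of -0.13 for all genes. DESeq2 called 0 of the 1 with an adjusted p there, Ncl (nucleolin), which had 97.5 and 104 against 47.3 and 39.2 and an adjusted p of 0.111 in the authors' deposited table. Npm1 (nucleophosmin), which also has a terminal oligopyrimidine start, had 50.6 and 72.8 against 27.3 and 24.3. Only 37 of the 62 rows had an axonal mean of at least 10, and low rows lay lower in all genes too. In cell bodies 60 of the 62 had a mean of at least 10. The axonal medians of all genes in the authors' deposited table were -0.01 for a somatic mean of 10 to 50 and 0.25 for 50 to 100. For 100 to 300 the median was 0.42, and no test was run on these differences. Of the mature ribosome's other proteins, the main row named Fau, made as a fusion with a ubiquitin-like protein, had 52.2 and 44.6 against 31.5 and 20.3.

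Cell type markers in the axonal libraries moved with side as well. Normalized counts summed over 6 astrocyte markers were 1950 and 2409 against 346 and 705, and DESeq2 called 4 of them (Gfap, Aldoc, Slc1a3 and Gja1) in the authors' deposited table, where 5 lay above 0 and Slc1a2 below (-0.82). Fibroblast markers summed to 333 and 755 against 98.7 and 127, with Col1a1 and Col1a2 called by DESeq2 in the authors' deposited table. The other 3 fibroblast markers, Col3a1 (-0.05), Dcn (-0.57) and Lum (-0.59), lay below 0 in the authors' deposited table, and the median of the 5 was -0.05. The 6 neuronal markers summed to 537 and 637 against 320 and 727, with 0 called and 3 of 6 above 0, so the labelled cell type was present on both sides. Microglial markers summed to 43.1 and 21.9 against 84.0 and 111, with 1 of 5 above 0 (Aif1), and oligodendrocyte markers to 61.2 and 47.7 against 54.6 and 27.0, with 4 of 5 above 0. No matched marker was at 0 in all libraries, Aldh1l1 was not matched, and none of 3 nuclear transcripts listed was matched. Ribosomal protein genes are expressed in every cell type, and the part of these cells in the axonal side difference was not tested. In such bulk samples fewer cells of a type and less RNA per cell cannot be told apart.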

How the data were processed

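Libraries were made from total RNA with the TruSeq kit, per the labels' protocols. Trim Galore, TopHat2, SAMtools and DESeq2 are named in the submitters' processing notes, with versions, genome build, annotation and counting method not given in the sources used here. The authors deposited 1 table per compartment, with, per the file headers, the mean normalized count (a signal per gene), the log2 fold change and its standard error, a score that is their quotient (Wald statistic), and the p-value with its adjusted p-value. The log2 fold changes of low genes are shrunk toward 0 in the deposited tables, which understates their size, and the authors' tables name no numerator.

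Whole reads per library were recovered from the 15 digits of the deposited means below 1000, since each mean is a sum of whole reads divided by 4 size factors. Every such mean had exactly 1 solution within rounding of its last digit, 0% of altered means had any, and 2930 of 2930 axonal and 2836 of 2836 somatic simulated means were solved rightly. The side of a library came from the sign of the fold change of genes with 1 read. Libraries could not be matched to titles, so they entered no test between treatments. Compartment shares were compared by an exact permutation test, and axonal minus somatic log2 fold changes by a z test with Benjamini-Hochberg adjustment over all genes in both tables (scipy 1.17.1, pandas 2.3.3, numpy 2.4.6).

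The members, lists and tests were chosen with earlier results of these data known. Named were members that passed a test, the 5 of smallest p in each table, fixed members by role and paralog pairs. Levels per coding length and identity between proteins needed protein sequences not used here, so copies were found by symbol and RefSeq name through Entrez numbers. RefSeq windows are from GRCr8. Some genes are not reported here by name and are left out of the plots by gene, while counts and medians include them.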

Additional observations from a re-analysis of the deposited data

How the results depend on the processing

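No paired analysis was possible because the tables hold no column per sample and recovered libraries could not be matched to replicate numbers. The count of called members was 0 in both compartments, and 0 for the axonal minus somatic difference, under each adjustment, filter and centring tried; leaving out a library could not be tried on these counts. The axonal median over all members, 0.51, fell to 0.0760 when centred on genes whose somatic mean was 100 or more, which subtracts their median by construction. Leaving out a library moved it between 0.364 (without positive-side library 2) and 0.714 on recovered ratios, from 0.57 with all 4. The axonal large minus small difference ran from -0.0822 to 0.114, and the somatic one from -0.339 to 0.210. It was 0.0345 in axons without members that have another row of their family. The somatic median ran from -0.445 to 0.557 and was -0.0881 with the deep and 0.179 with the shallow libraries only. Without the 20 most abundant identifiers the share of summed means was 0.130% in axons and 0.724% in cell bodies. Restricting to standard symbols, chosen after seeing the data, gave medians of 0.54 and 0.003. Axonal depth (a median of 144 reads per standard member) limits every single-gene value.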
